A study of Homo sapiens with 16 samples.

Results

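The comparison concerns 2 clones of MDA-MB-231, a human triple-negative breast cancer line, that carried an empty vector and no introduced TTP. The 4 libraries of clone EV_B were set against the 4 libraries of clone EV_A over all 14857 listed genes, which is 8 of the 16 libraries of the series. The other 8 libraries, from the clones TTP_E11 and TTP_H3 with introduced tristetraprolin (TTP, an RNA-binding protein that speeds the decay of mRNAs with AU-rich elements), entered only the estimate of spread and 1 side comparison. Cultures of every clone held a tet-off system and had been selected with G418 and hygromycin B in DMEM with fetal bovine serum. Doxycycline in the maintenance medium is stated only for cells that express TTP. The labels describe the 4 libraries of a clone as biological replicates. Each group is a single stably transfected clone, so each p-value reflects only how much cultures of 1 clone vary, and a difference between the clones cannot be told apart from a difference between any other 2 clones of the line.

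A transfected clone grows from a single cell of a line that is itself a mixture of cells, so 2 clones with the same vector can differ in programmes unrelated to the insert. The programmes examined here are known in breast cancer lines. Interferon-stimulated genes encode antiviral proteins and are switched on by transcription factors that include STAT2 and IRF9. Hypoxia-inducible factors (HIF) bind DNA when oxygen is low and raise glycolysis, acid export and vessel growth signals. ATF4 drives amino acid import and synthesis in the integrated stress response, and ribosomes, tRNA synthetases and replication proteins together set the capacity of a cell to grow.

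Most interferon-stimulated genes, HIF targets and S100 proteins were lower in EV_B, while most genes of amino acid supply, translation, DNA replication and the proteasome were higher. Of the extracellular matrix and lysosome lists, under 50% of the members were lower. In total 5468 of 14857 genes passed an adjusted p of 0.05 in limma (36.8%), 3003 higher in EV_B (20.2%) and 2465 lower (16.6%). These percentages are the background for each count of a gene list below. Differences of at least 1 on the log2 scale were more often lower in EV_B, with 215 genes lower (1.45%) and 81 higher (0.545%). These counts were 155 and 32 with a pseudocount of 5, and 108 and 16 among genes with a mean of at least 50. Changes are given as log2 of the normalized count plus 1 in EV_B minus EV_A, which understates the change of weakly expressed genes, and values are normalized counts, mean ± SD over 4 libraries unless each library is named. The share of called genes that were higher was 54.9%, but it was 44.8% (2423 higher, 2985 lower) when libraries were scaled to the same total.

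The EV libraries held 15643184 to 22066098 reads on the listed genes. Of the variance among these 8 libraries, 47.6% lay on a first principal component that separated the clones. EV_B library 4 stood apart from the other EV_B libraries, at 31.4 on this component against 16.8 to 19.4, and counts of list members without it are given where they differ by over 1.5 times and for some other lists. Libraries of the clones did not overlap for 5373 genes (36.2%), of which 2956 were higher in EV_B (19.9%) and 2417 lower (16.3%). Genes with more reads were called more often: among the 2972 genes with the highest expression, 39.1% were higher and 18.3% lower in EV_B, against 5.45% and 9.69% among the 2972 with the lowest. Of 12 markers of immune cells, 4 were listed (CD14, CD68, CSF1R and LYZ), with a summed level of 180.9 to 208.6 in EV_A and 117.5 to 135.5 in EV_B. None of these 4 was at 0 in a clone, and their part in the differences was not tested. VIM, the intermediate filament of mesenchymal cells that this line expresses, was at 32740 ± 157 in EV_A and 32200 ± 409 in EV_B. It did not pass the limma test (adjusted p = 0.612). The spread in this test is estimated over all 16 libraries, so a gene that did not pass can still differ between the EV clones.

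**Figure D1:**
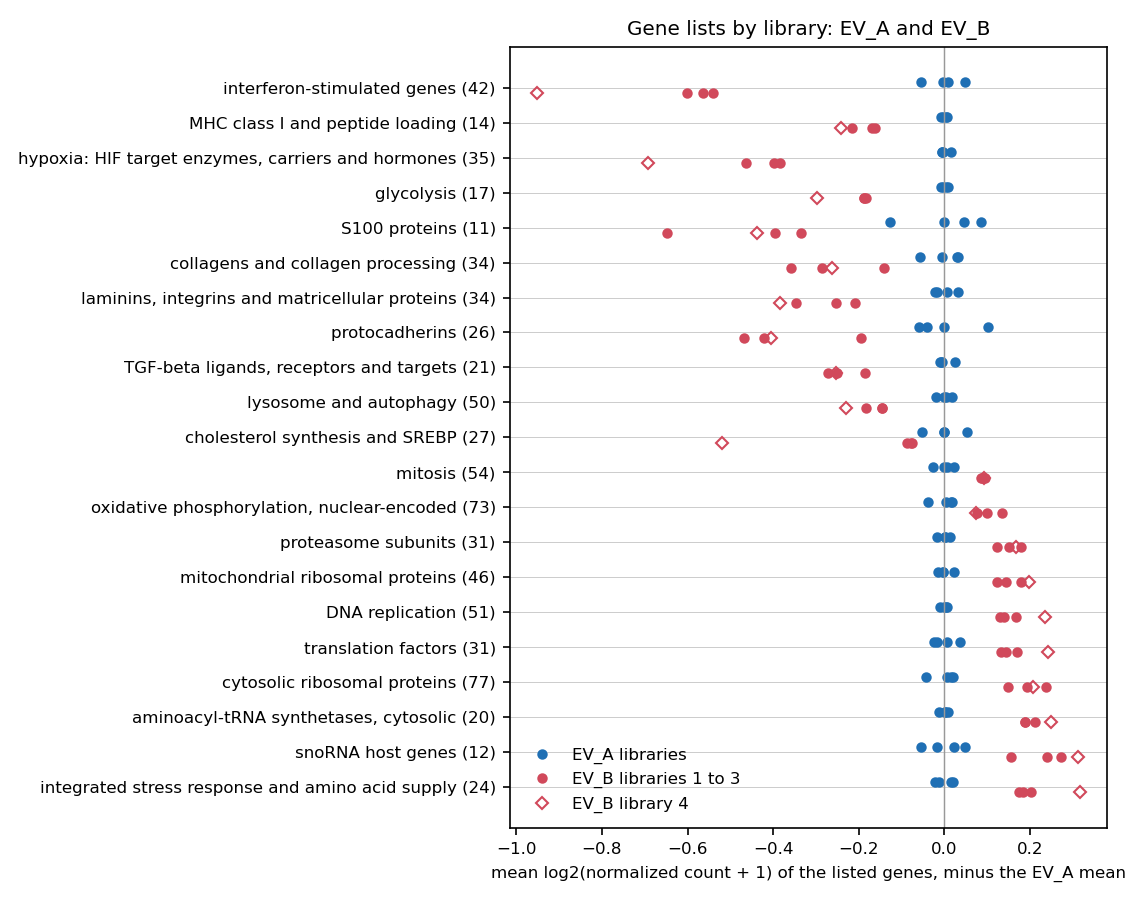
Mean log2 level of each gene list in each EV library, relative to the mean of the EV_A libraries, with the number of listed genes in brackets. Filled points are libraries (EV_A blue, EV_B red) and the open diamond is EV_B library 4, which lies beyond the other EV_B libraries for interferon-stimulated genes (-0.95 against -0.60 to -0.54) and for cholesterol synthesis (-0.52 against -0.09 to -0.07).

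The largest decreases in EV_B were in IGHG2, IGLC3 and PADI4. IGHG2 (ENSG00000211893, chromosome 14, 105639559 to 105644790, GRCh38), a constant segment of the immunoglobulin heavy chain, was at 498.1, 555.1, 478.9 and 513.9 in the EV_A libraries and at 5.50, 6.35, 5.71 and 5.64 in those of EV_B. Each EV_A library was thus far above each EV_B library, with 2143 reads in EV_A and 23 in EV_B and a ratio of 88.3 (exact 95% interval 58.7 to 140, counting error only). IGLC3, a light chain constant segment on chromosome 22, was at 57.9, 102.1, 94.4 and 104.7 in EV_A, and was listed at 0 in EV_B libraries 1, 3 and 4 and at 3.18 in library 2. Its 385 reads in EV_A stood against 3 in EV_B, a ratio of 122 (41.3 to 592). Immunoglobulin constant genes are close copies of each other, so the assignment of these reads to IGHG2 and IGLC3 is uncertain. The B cell markers MS4A1 and CD79A were not among the listed genes.

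PADI4, an enzyme that turns arginine of histones into citrulline, was at 65.1, 86.3, 90.1 and 112.7 in EV_A and at 0, 1.06, 1.90 and 0.94 in EV_B (log2 change -5.57, adjusted p = 4.65e-10). No library of EV_B came near those of EV_A: there were 378 reads in EV_A and 4 in EV_B, a ratio of 89.5 (34.7 to 330). TFF1, a secreted trefoil peptide of luminal cells, held 156 reads in EV_A and 1 in EV_B (ratio 148, 26.1 to 5870). IGLC3, PADI4 and TFF1 were the genes called with a mean of at most 5 in 1 clone and at least 25 in the other. In the TTP clones PADI4 was near 0 as in EV_B, at 0.22 ± 0.45 in TTP_E11 and 0.48 ± 0.55 in TTP_H3.

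Further genes with large decreases mostly encode secreted and membrane proteins. PI16, a peptidase inhibitor, was at 115.8, 103.0, 120.4 and 109.2 in EV_A and at 30.8, 26.5, 25.7 and 11.3 in EV_B (log2 change -2.29, adjusted p = 9.66e-08). The salivary cystatins CST1 and CST2, inhibitors of cysteine proteases, changed by -2.12 and -1.85. They are near-identical neighbours on chromosome 20, so that reads may be shared between them. ATP2B2, a calcium pump of the plasma membrane, changed by -2.03, KCP, a secreted regulator of BMP ligands, by -1.93, and ATOH8, a transcription factor, by -1.85. SPON2, a secreted matrix protein, went from 140.9 ± 13.2 to 22.6 ± 6.5. For all of these the 4 EV_B libraries lay below the 4 EV_A libraries.

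Among the genes with the largest increases, several act in inflammation and matrix turnover. IL11, a cytokine of the IL-6 family, was at 26.5, 26.9, 26.9 and 37.3 in EV_A and at 257.5, 257.3, 285.4 and 325.4 in EV_B (log2 change 3.22, adjusted p = 2.49e-08). IL24, a cytokine of the IL-10 family, rose from 114.2 ± 19.6 to 369.4 ± 139 (1.64), with EV_B library 4 at 576.4 and the others at 280.6 to 325.4. MMP1, a collagenase, was at 37.4, 53.8, 35.5 and 42.6 against 160.7, 148.2, 184.6 and 311.2. HAS2, a hyaluronan synthase, was at 36.2, 38.1, 38.1 and 32.8 in EV_A and at 117.7, 96.4, 123.7 and 154.2 in EV_B (1.72, adjusted p = 2.5e-13). Libraries of the clones did not overlap for these 4 genes.

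The other increases of this size were in genes of varied roles. DMBT1, a scavenger receptor of mucosal surfaces, went from 148.7 ± 10.5 to 483.9 ± 47.8, and F2RL3, a thrombin receptor, from 21.2 ± 1.4 to 59.2 ± 5.6. EMB, a chaperone of monocarboxylate transporters, changed by 1.99, SPANXB1, a cancer-testis antigen with near-identical copies on chromosome X, by 1.87, and LCP1, an actin bundler of blood cells, by 1.46. RIMS2, a scaffold of vesicle release, changed by 1.46, and AL158839.1, a transcript antisense to HHLA3, by 1.45. Whether strand was kept is not stated, so reads of AL158839.1 and HHLA3 cannot be told apart. CYP1A1, a target of the aryl hydrocarbon receptor, was at 78.4, 55.7, 45.0 and 46.2 in EV_A and at 95.7, 102.7, 118.0 and 291.5 in EV_B, which makes library 4 the highest by far. Its call (log2 change 1.29, adjusted p = 0.00394) was lost in edgeR on the reads of the 8 EV libraries (adjusted p = 0.0562).

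**Figure D2:**
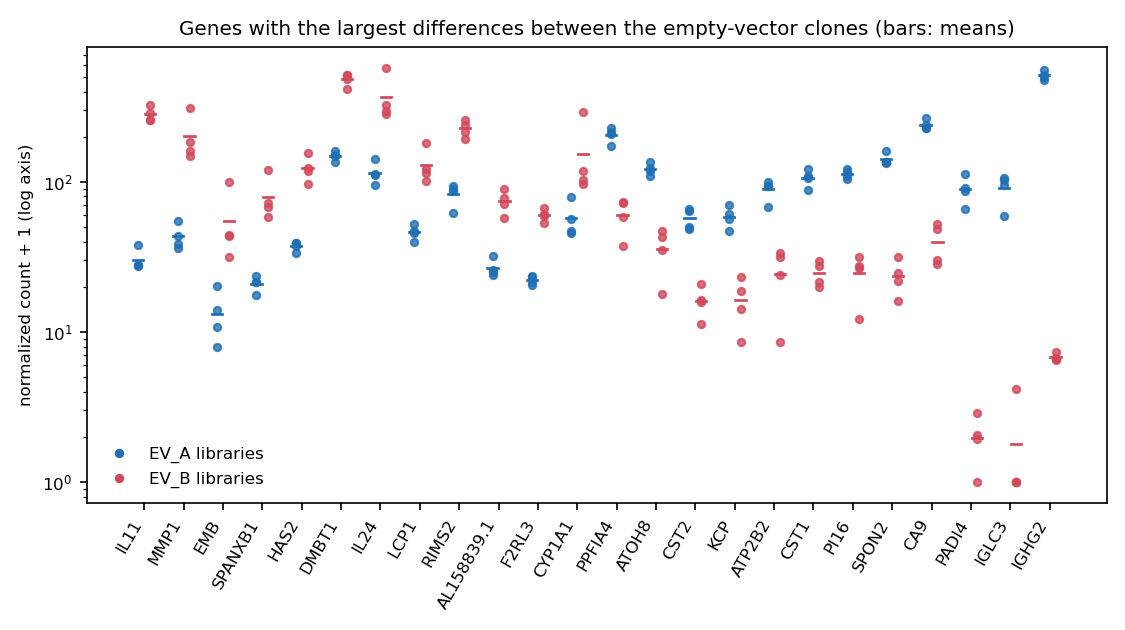
Normalized count plus 1 (log axis) of the 12 genes with the largest increases and the 12 with the largest decreases in EV_B that passed the test, did not overlap between clones and had a mean of at least 50 in the higher clone. Points are libraries (EV_A blue, EV_B red) and bars are means. IGLC3 and PADI4 lie near the bottom of the axis in EV_B.

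Of the 42 interferon-stimulated genes, 35 were lower in EV_B and 0 higher, with a median log2 change of -0.69 against 0.005 over all 14857 genes. The background is 16.6% of genes lower, and over 19 alternative fits 33 to 35 members were lower and 0 higher. IFIT1, which binds viral RNA ends, was at 3478, 3893, 4006 and 3943 in the EV_A libraries and at 1668, 1834, 1674 and 1006 in those of EV_B (log2 change -1.34, adjusted p = 9.71e-06). IFIH1, the cytosolic sensor MDA5 of double-stranded RNA, was at 1285, 1301, 1286 and 1306 against 636.0, 606.7, 587.0 and 388.4 (-1.25, adjusted p = 9.51e-07). MX2, an antiviral GTPase, was at 113.4, 126.2, 135.1 and 151.8 against 56.1, 56.1, 59.0 and 29.2 (-1.42). Every EV_B library was below every EV_A library for these 3 genes, and library 4 was the lowest of EV_B for each. Without library 4, the number of members called lower was again 35 and the median was -0.59.

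GBP2, a guanylate-binding protein, changed by -1.22 and IFI44L, another interferon-induced protein, by -1.20 (49.5 ± 8.0 to 21.3 ± 5.7). ISG15, a ubiquitin-like modifier, fell from 3488 ± 109 to 1975 ± 463. STAT2, a transcription factor of the pathway, fell from 1470 ± 91 to 942.1 ± 56.1 (-0.64, adjusted p = 1.38e-11). Members that did not pass the test included USP18, IRF9, OAS3, PSMB9, IFITM2 and PSMB8. Between the TTP clones, the same list had 3 members higher and 1 lower in TTP_H3, with a median of 0.05.

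The 3 promoters below are examples, picked among lowered members for holding a sequence typical of interferon response elements. In the 250 bases before and 50 after the gene start, 21 of the 32 members with a RefSeq promoter (65.6%) held GAAANNGAA on either strand, against 2264 of 27305 promoters of all genes (8.29%) and 658 of 10386 promoters of the listed genes (6.34%). Capitals mark the matches, which may overlap each other. A match is a description of the sequence and not a site of binding. The sequences are RefSeq promoters on GRCh38.p14, 5′ to 3′ in the direction of the gene.
IFIT1, chr10:89392373-89392672, plus strand: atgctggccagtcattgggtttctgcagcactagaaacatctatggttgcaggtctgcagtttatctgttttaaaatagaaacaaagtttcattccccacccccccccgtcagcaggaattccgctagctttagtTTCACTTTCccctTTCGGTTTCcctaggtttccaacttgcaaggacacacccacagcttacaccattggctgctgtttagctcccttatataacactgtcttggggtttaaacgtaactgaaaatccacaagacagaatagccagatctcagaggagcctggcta
IFIH1, chr2:162318635-162318934, minus strand: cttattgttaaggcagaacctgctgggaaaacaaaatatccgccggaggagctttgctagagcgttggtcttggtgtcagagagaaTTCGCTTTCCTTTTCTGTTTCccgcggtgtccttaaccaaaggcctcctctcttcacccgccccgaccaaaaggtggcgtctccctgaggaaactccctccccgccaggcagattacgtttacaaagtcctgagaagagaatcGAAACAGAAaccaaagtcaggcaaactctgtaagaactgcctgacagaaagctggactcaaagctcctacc
IFI44L, chr1:78620198-78620497, plus strand: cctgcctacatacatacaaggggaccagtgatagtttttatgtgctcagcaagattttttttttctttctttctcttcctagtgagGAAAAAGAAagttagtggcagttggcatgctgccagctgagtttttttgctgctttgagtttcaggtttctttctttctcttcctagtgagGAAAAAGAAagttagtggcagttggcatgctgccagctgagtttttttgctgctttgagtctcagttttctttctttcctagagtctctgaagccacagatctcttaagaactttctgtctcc
IFIT1 held 2 matches, IFIH1 4 and IFI44L 2. IFIT1 overlaps LIPA on the other strand, and without strand the reads of both cannot be told apart.

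Most genes of MHC class I and peptide loading were lower as well, by smaller amounts. Of the 14 members, 10 were lower and 1 higher, with a median of -0.23. HLA-B and HLA-C changed by -0.32 and -0.28. These genes have similar sequences, so reads may be shared between them. The light chain B2M fell from 14580 ± 553 to 12510 ± 584, and TAPBP, which loads peptides, from 7431 ± 319 to 5339 ± 111. ERAP2, a peptide trimming enzyme, changed by -0.50. The subunits of the peptide transporter were unequal, with TAP2 higher in EV_B (1767 ± 77 to 2221 ± 145) and TAP1 at 2691 ± 85 and 2730 ± 41 (adjusted p = 0.691).

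**Figure D3:**
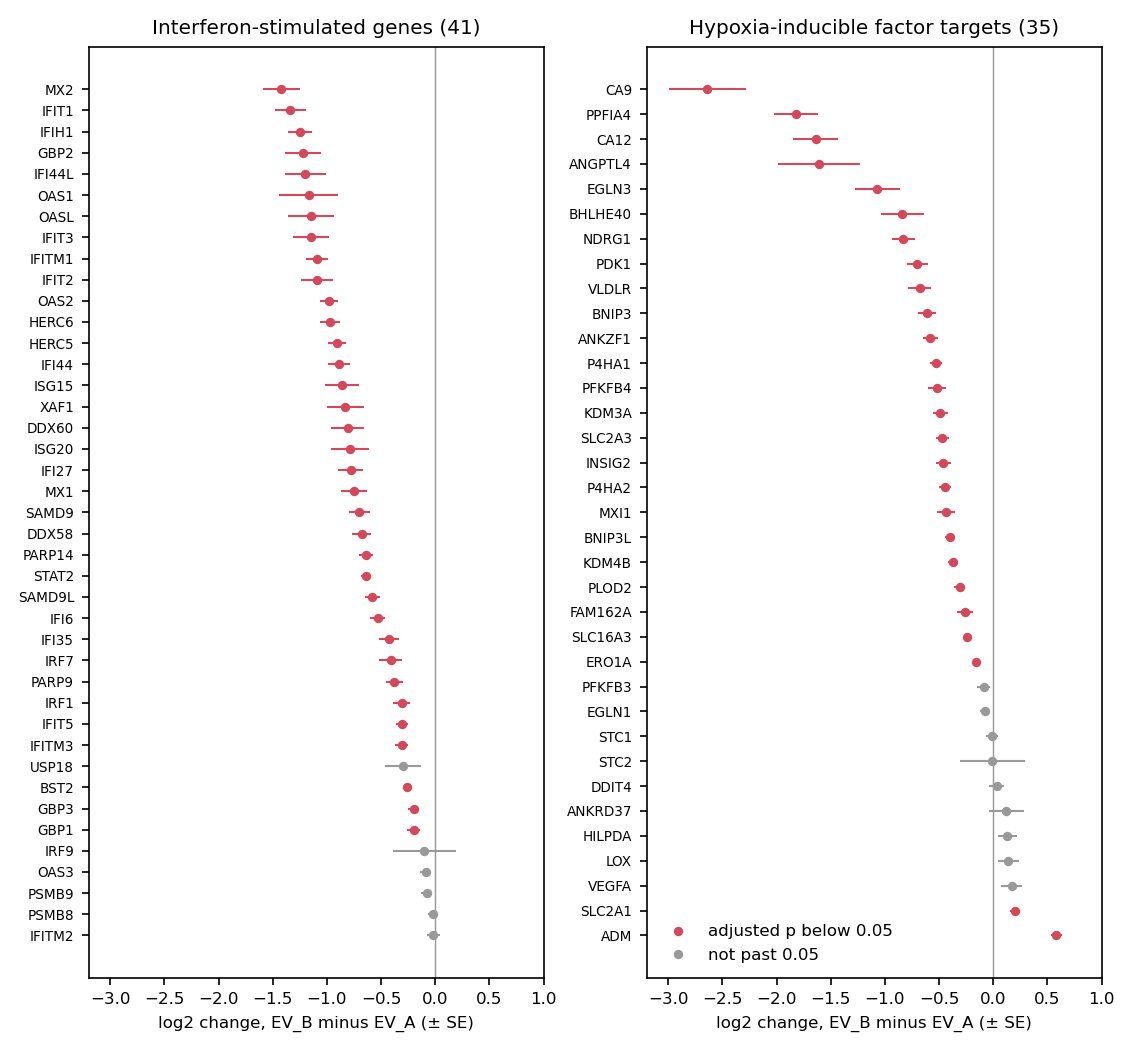
Log2 change (EV_B minus EV_A, point) with its standard error (bar) for genes of the interferon list and of the HIF target list. Red genes passed the adjusted p of 0.05. The interferon genes drawn lie below 0, from -1.42 for MX2 to -0.02. Of the 7 HIF targets above 0, ADM and SLC2A1 are the 2 that passed.

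Of the 35 HIF targets, 24 were lower in EV_B and 2 higher, with a median log2 change of -0.44. Without EV_B library 4 the number lower was again 24 and the median was -0.35. Without both EV_B library 4 and TTP_H3 library 3, 24 were lower and 5 higher. CA9, a carbonic anhydrase of the cell surface, was at 226.7, 228.4, 239.0 and 264.5 in EV_A and at 47.3, 27.5, 51.4 and 29.2 in EV_B (log2 change -2.64, adjusted p = 3.27e-05). It shares its span with ARHGEF39 on the other strand. PPFIA4, a liprin, went from 205.4 ± 23.9 to 59.3 ± 16.6 (-1.82, adjusted p = 6.63e-07). CA12, a second carbonic anhydrase of the cell surface, was at 583.8, 589.5, 590.6 and 607.1 against 203.6, 231.9, 191.2 and 142.9 (-1.64). The clones did not overlap for CA9, PPFIA4 or CA12.

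ANGPTL4, a secreted inhibitor of lipoprotein lipase, was at 29.3 ± 10.7 and 8.997 ± 3.56, and EGLN3, a prolyl hydroxylase that marks HIF for decay, at 94.3 ± 7.1 and 47.1 ± 16.7. Other well-known targets did not follow. ADM, the vessel-dilating hormone adrenomedullin, was at 685.1, 668.4, 695.4 and 731.3 in EV_A and higher in EV_B, at 981.5, 998.5, 1102 and 1086 (log2 change 0.58, adjusted p = 3.27e-10). SLC2A1, the glucose carrier GLUT1, rose from 17140 ± 168 to 19710 ± 365 (0.20, adjusted p = 0.0026). VEGFA, the main vessel growth factor, was at 4063 ± 192 and 4556 ± 149 and did not pass the test (adjusted p = 0.201). Members of this list thus moved in both directions.

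Of 11 genes of oxygen sensing, 4 were lower and 0 higher, with a median of -0.02. This share of 36.4% is close to the 36.8% called in either direction over all genes. HIF1A, the oxygen-regulated subunit, was at 8405, 8695, 8984 and 8658 in EV_A and at 7323, 6944, 6654 and 6119 in EV_B (-0.36, adjusted p = 5.99e-08), with an antisense gene in its span. EPAS1, which encodes HIF-2 alpha, was at 1389 ± 70 and 1524 ± 72 (adjusted p = 0.42), and VHL, which targets HIF for decay, at 959.4 ± 18.7 and 976.1 ± 61.4 (adjusted p = 0.751). Of 17 glycolytic enzymes, 10 were lower and 3 higher (median -0.18). ALDOC was the lowest, from 253.6 ± 22.8 to 84.8 ± 15.3 (-1.58), followed by ENO2 (-0.45), PGK1 (-0.36) and LDHA (-0.26). LDHB, the other lactate dehydrogenase subunit, rose from 7254 ± 173 to 8310 ± 228 (0.20, adjusted p = 1.04e-05).

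HIF binds ACGTG, the core of the hypoxia response element, and 3 promoters of lowered targets that hold this sequence are shown as examples, picked for holding it. ACGTG on either strand was held by 15 of the 28 HIF list members with a RefSeq promoter (53.6%) and by 8 of 17 glycolysis members (47.1%). Of the 20 HIF list members that were lower and have a promoter, 11 held it. The share was 21.6% over all promoters (5900 of 27305) and 26.6% over those of the listed genes (2762 of 10386). Capitals mark ACGTG or its reverse complement CACGT, which overlap where they form the E-box CACGTG.
CA9, chr9:35673678-35673977, plus strand: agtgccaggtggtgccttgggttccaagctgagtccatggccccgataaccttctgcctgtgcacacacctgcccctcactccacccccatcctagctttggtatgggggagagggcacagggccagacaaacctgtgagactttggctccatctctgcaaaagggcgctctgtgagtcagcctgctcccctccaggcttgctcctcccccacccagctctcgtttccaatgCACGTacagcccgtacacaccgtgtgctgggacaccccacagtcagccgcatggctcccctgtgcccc
PPFIA4, chr1:203026241-203026540, plus strand: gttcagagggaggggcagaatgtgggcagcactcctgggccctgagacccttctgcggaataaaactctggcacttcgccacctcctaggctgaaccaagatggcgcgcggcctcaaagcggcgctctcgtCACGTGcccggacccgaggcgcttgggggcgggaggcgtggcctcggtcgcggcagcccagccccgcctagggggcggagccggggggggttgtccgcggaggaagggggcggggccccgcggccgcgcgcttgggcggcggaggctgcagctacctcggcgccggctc
ANGPTL4, chr19:8363905-8364204, plus strand: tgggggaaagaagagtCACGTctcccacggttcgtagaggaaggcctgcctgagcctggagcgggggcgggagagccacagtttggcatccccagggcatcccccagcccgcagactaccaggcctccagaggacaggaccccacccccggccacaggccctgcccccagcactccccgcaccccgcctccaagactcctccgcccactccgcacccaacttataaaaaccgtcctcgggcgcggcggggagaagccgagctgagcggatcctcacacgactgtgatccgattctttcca
CA9 and ANGPTL4 held 1 match each and PPFIA4 held 2, which form 1 E-box.

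Genes for amino acid supply were higher in EV_B. Of 24 members of the list of the integrated stress response and amino acid supply, 14 were higher, 2 lower and 8 did not pass, with a median log2 change of 0.31 against a background of 20.2% of genes higher. SLC7A5, the carrier LAT1 for large neutral amino acids, was at 15580, 15100, 15110 and 14840 in EV_A and at 26490, 25800, 25720 and 34520 in EV_B (0.88, adjusted p = 0.00268). Its partner chain SLC3A2 was at 6357, 6335, 6339 and 6389 against 9311, 9418, 9707 and 13030 (0.69, adjusted p = 4.11e-05). Libraries of the clones did not overlap for either chain, and EV_B library 4 was the highest for both. Enzymes of serine synthesis rose with them, PSAT1 from 1654 ± 60 to 2940 ± 214 (0.83) and PHGDH from 71.5 ± 13.6 to 115.8 ± 10.7 (0.70). ASNS, asparagine synthetase, was at 691.1, 752.8, 669.4 and 697.6 against 1082, 1082, 1107 and 1298 (0.70, adjusted p = 9.07e-09).

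ATF4, the transcription factor of the response, was at 3249 ± 38 and 3350 ± 70 (adjusted p = 0.326). SLC38A2, the sodium-coupled carrier SNAT2 of small neutral amino acids, went the other way, at 5467, 5752, 5954 and 5601 in EV_A and 3620, 3809, 3450 and 3015 in EV_B (-0.72, adjusted p = 9.75e-07). The other member called lower was VLDLR, which also belongs to the HIF target list.

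The translation machinery was higher by small and even amounts. Of 20 cytosolic aminoacyl-tRNA synthetases, which load amino acids on tRNA, 16 were higher and 0 lower (median 0.21). YARS was at 2808, 2737, 2907 and 2771 in EV_A and 3710, 3776, 3845 and 4028 in EV_B (0.45, adjusted p = 3.63e-12). VARS changed by 0.42 and FARSB by 0.36. Translation factors were higher in 24 of 31 (median 0.16), among them EIF5A (17230 ± 234 to 21930 ± 978), EEF2, the ribosome translocase (30720 ± 478 to 36940 ± 752), and EIF4EBP1, a repressor of cap-dependent initiation (1060 ± 79 to 1440 ± 60). No member of either list was lower. Of the synthetases 19 and of the translation factors 28 are among the 2972 genes with the highest expression, of which 39.1% were higher.

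Cytosolic ribosomal proteins were higher in 70 of 77 (median 0.20), with none lower and a largest called change of 0.43. All 77 are among the 2972 genes with the highest expression, of which 39.1% were higher. Host genes of small nucleolar RNAs, which guide ribosomal RNA modification, were higher in 10 of 12 (median 0.28), led by SNHG7 (1464 ± 41 to 1927 ± 155) and SNHG8 (885 ± 30 to 1145 ± 69). Mitochondrial ribosomal proteins were higher in 30 of 46 (median 0.16) with MRPS12 at 0.36 and MRPL3 at 0.35, although only 9 of the 46 are among those 2972 genes. Without EV_B library 4 these counts were 67, 9 and 27, with 1 mitochondrial member then lower. Under the other scalings the medians of these 5 lists stayed above 0.

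Replication and protein turnover genes were higher too. Of 51 DNA replication genes, 34 were higher and 1 lower (median 0.16). UHRF1, which maintains DNA methylation, was at 3489, 3346, 3302 and 3453 in EV_A and 4443, 4376, 4392 and 4824 in EV_B (0.41, adjusted p = 2.62e-09). CDC25A, the phosphatase that starts S phase, rose from 793.3 ± 20.2 to 1059 ± 121 (0.41), CCNE1, cyclin E1, from 267.0 ± 10.7 to 352.9 ± 22.8 (0.40) and MCM10 by 0.34. POLE, the leading strand polymerase, was the member lower in EV_B, at 2295 ± 118 and 2068 ± 59 (-0.15).

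Mitotic genes were higher in 23 of 54 and lower in 2, with a median of 0.07. Of the 54, 41 are among the 2972 genes with the highest expression, of which 39.1% were higher, a share close to that of this list (42.6%). CDC20, an activator of the anaphase-promoting complex, was at 5822, 6001, 5838 and 5798 against 7585, 7768, 7713 and 8285 (0.42, adjusted p = 1.24e-11), and PTTG1, securin, changed by 0.39. MKI67, a proliferation marker, was at 9940 ± 251 and 9800 ± 205 (adjusted p = 0.682). CDKN1A, the cyclin-dependent kinase inhibitor p21, fell from 4185 ± 146 to 2990 ± 425 (-0.50). Proteasome subunits were higher in 21 of 31 (median 0.15), with PSMD2 (14750 ± 268 to 19150 ± 540) and PSMA7 (7634 ± 162 to 9306 ± 262) the largest. Nuclear-encoded genes of oxidative phosphorylation were higher in 33 of 73 (median 0.10), of which ATP5MC1 changed by 0.30. Neither of the last 2 lists had a member lower in EV_B. The 2972 genes with the highest expression, of which 39.1% were higher, hold 28 of the 31 proteasome subunits and 31 of the 73 oxidative phosphorylation genes. The share higher was 67.7% in the proteasome list and 45.2% in the oxidative phosphorylation list, the latter close to 39.1%.

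Genes of the extracellular matrix and its receptors moved in both directions, more of them lower in EV_B. Of 34 collagens and collagen processing genes, 12 were lower and 3 higher (median -0.19). The collagen VI chains, neighbours on chromosome 21, both fell: COL6A1 was at 3372, 3345, 3344 and 3463 in EV_A and 1860, 1656, 1727 and 1526 in EV_B (adjusted p = 5.85e-14), and COL6A2 went from 753.7 ± 15.5 to 312.1 ± 64.2 (-1.29). COL1A2 changed by -1.57 and COL18A1, the source of endostatin, by -1.04, while COL12A1 was higher (3177 ± 55 to 4019 ± 224, 0.34). Among 34 laminins, integrins and matricellular proteins, 16 were lower and 2 higher (median -0.17).

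FN1, fibronectin, was at 27650, 27910, 28090 and 28550 against 17760, 17280, 16340 and 15190 (-0.76, adjusted p = 0.00312). ITGB4, the hemidesmosome integrin, was at 3488, 3405, 3401 and 3540 against 2159, 2170, 1950 and 1032 (-0.98, adjusted p = 0.00184), with EV_B library 4 the lowest. LAMA5 changed by -0.94 and ITGA10, a collagen receptor, by -1.53. TNC, tenascin C, rose from 1198 ± 63 to 1782 ± 149 (0.57), and THBS1 was at 41430 ± 656 and 45840 ± 4930 (adjusted p = 0.58). TIMP3, a matrix-bound protease inhibitor, fell from 6228 ± 210 to 2948 ± 328 (-1.09). Within the list of 14 metalloproteinases and inhibitors 6 were lower and 3 higher.

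S100 proteins, small calcium sensors encoded side by side on chromosome 1, were lower in 7 of 11 and higher in 0 (median -0.36). S100A2 was at 1217, 1218, 1196 and 1178 in EV_A and 452.3, 526.3, 492.8 and 415.6 in EV_B (-1.35, adjusted p = 1.19e-13). S100A4, linked to cell motility, was at 8386, 8919, 9077 and 8987 against 5236, 5215, 5275 and 3998 (-0.85, adjusted p = 6.82e-05). S100A3 overlaps S100A4 on the same strand, so its change (-1.13) may include reads of its neighbour. S100A6 fell from 29420 ± 1020 to 22970 ± 2280. The clones did not overlap for any of these 4.

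TGF-beta genes were lower in 12 of 21 and higher in 1 (median -0.23), or lower in 10 and higher in 2 without EV_B library 4. LTBP3, which holds latent TGF-beta in the matrix, went from 1309 ± 44 to 634.5 ± 44.6 (-1.05), SMAD6, an inhibitory SMAD, from 209.4 ± 6.3 to 102.7 ± 12.4 (-1.03), and the ligands TGFB1 and TGFB2 changed by -0.31 and -0.38. The member higher in EV_B was INHBA, the activin A subunit (33.5 ± 2.7 to 49.0 ± 7.6). Protocadherins, adhesion proteins of neurons, were lower in 11 of 26 and higher in 0 (median -0.33), and the TTP clones also differed in 5 of them, all lower in TTP_H3. PCDH1 was at 178.5, 180.1, 181.0 and 174.8 against 94.6, 117.5, 133.2 and 53.6 (-0.91). PCDHGC5 (-1.78) shares exons with other genes of its cluster and PCDHB8 (-0.72) has close copies, so reads may be shared.

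Lysosome and autophagy genes were lower in 24 of 50 and higher in 1, with a median of -0.13. CTSD, the aspartic protease cathepsin D, was at 22050, 22370, 23220 and 23530 against 14830, 13880, 13870 and 11500 (-0.76, adjusted p = 0.000241). IDUA, which degrades glycosaminoglycans, changed by -0.86, ARSA, a sulfatase, by -0.70 and PSAP, the saposin precursor, by -0.33. Of the transcription factors of this system, TFEB fell from 287.3 ± 14.2 to 180.4 ± 21.7 (-0.67, adjusted p = 1.75e-07), and TFE3 was the member higher in EV_B (2893 ± 74 to 3259 ± 151). Within lipid synthesis, SREBF1, a regulator of fatty acid synthesis, fell from 4521 ± 120 to 2108 ± 480 and SCD, the stearoyl-CoA desaturase, from 17400 ± 617 to 6921 ± 2120, with SCD in EV_B at 8540, 7962, 7353 and 3831.

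Cholesterol synthesis had 11 of 27 members lower and 3 higher (median -0.16), but 10 lower and 5 higher without EV_B library 4 (median -0.06), and 6 lower without EV_A library 3.

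In the list of 13 cytokines, 4 were lower in EV_B and 2 higher, the latter being IL11 and IL24. CSF1, the macrophage growth factor, was at 4054, 3838, 4065 and 3845 against 2048, 1987, 1889 and 1565 (-1.08, adjusted p = 4.05e-12). Its receptor CSF1R, an immune cell marker, was at 120.3 ± 9.9 and 62.7 ± 10.5 (-0.94), and CD14 at 28.1 ± 0.4 and 15.2 ± 3.6 (-0.87). CX3CL1, a membrane-bound chemokine, changed by -0.97. IL6 was at 54.1 ± 10.7 and 63.5 ± 13.6 (adjusted p = 0.349). Among 17 NF-kB genes, 6 were lower and 2 higher, with BIRC3 (-0.81) and NFKBIA (-0.45) the largest, both feedback targets of this factor.

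Epithelial and luminal markers were lower in 6 of 15 and higher in 1 (median -0.18), and lower in 4 without EV_B library 4. MUC1, a surface mucin, was at 288.3, 307.3, 312.6 and 337.3 against 133.1, 137.7, 140.8 and 85.6 (-1.34, adjusted p = 6.51e-06), CLDN7, a tight junction protein, changed by -0.73 and KRT19 by -0.55. Mesenchymal genes were divided, with 4 of 14 higher and 4 lower. CDH11, an osteoblast cadherin, fell from 1774 ± 128 to 904.8 ± 199, while TAGLN, an actin-binding protein, rose from 82.0 ± 6.0 to 149.3 ± 17.4 (0.85).

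The other lists are given by their counts. Basal markers were lower in 5 of 11 and higher in 0 (median -0.27). Chaperones of the endoplasmic reticulum were lower in 9 of 27 and higher in 0, or lower in 7 and higher in 1 without EV_B library 4. Fatty acid synthesis had 9 of 22 members lower and 5 higher. Histones were higher in 9 of 24 and lower in 1 (median 0.26). Homeobox genes were higher in 6 of 23 and lower in 0, but higher in 3 without EV_A library 3. YAP targets were higher in 5 of 17 and lower in 1, and early genes higher in 6 of 15 and lower in 3. Contractile genes were higher in 8 of 18 and lower in 5, or lower in 3 without EV_B library 4. Proteins that bind AU-rich elements were higher in 5 of 14 and lower in 3, or higher in 3 without EV_A library 3 or EV_B library 4. Among the 2972 genes with the highest expression, 39.1% were higher. That set holds 15 of the YAP targets, 15 of the contractile genes and 10 of the proteins that bind AU-rich elements. ERK feedback genes had 4 of 12 higher and 4 lower. D-type cyclins and inhibitors had 2 of 13 higher and 4 lower. Targets of p53 had 3 of 24 higher and 7 lower, or 5 higher without EV_A library 1 and 4 lower without EV_B library 4. The urokinase system had 1 of 9 higher and 3 lower, EGF ligands and receptors 1 of 11 higher and 2 lower, and mitochondrially encoded genes 2 of 13 higher and 1 lower. Of 8 endothelial markers 3 were listed and 1 was higher, and of 7 kidney markers 2 were listed and 1 was higher, with no listed marker at 0.

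ZFP36, the gene that encodes TTP, was at 282.2, 226.5, 247.7 and 277.8 in EV_A and at 213.5, 234.0, 222.6 and 218.2 in EV_B, so that the libraries overlapped. The log2 change of -0.21 passed in limma (adjusted p = 0.00288) and not in DESeq2 (adjusted p = 0.0627). ZFP36L1 changed by 0.16 and ZFP36L2 by -0.41 (2210 ± 67 to 1669 ± 120, adjusted p = 1.37e-07). Both encode proteins that bind similar AU-rich elements.

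Position in the genome was examined in 274 bins of 10 Mb with at least 15 genes, since a clone can gain or lose a stretch of a chromosome. DNA copy number was not measured. The medians of the bins lay between -0.08 and 0.10 at their 5th and 95th percentiles. In the first 10 Mb of chromosome 1, 53 of 129 genes were lower and 2 higher in EV_B, with a median log2 change of -0.22, and in the next 10 Mb 29 of 87 were lower and 4 higher (-0.12). Between the TTP clones the median of the first bin was 0.03, with 8 genes higher and 2 lower. The mean log2 level of these 129 genes relative to EV_A was -0.20, -0.24, -0.27 and -0.43 in EV_B libraries 1 to 4, between -0.07 and 0.07 in the EV_A libraries and between -0.03 and 0.08 in the TTP libraries. All 4 EV_B libraries were thus below the other 12.

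The genes of this bin are rich in GC, with a median of 58.8%. Of these, 67 are among the 2961 genes with the highest GC content and had a median of -0.25, against -0.03 for the other 2894 of those genes, and the median of the 128 genes left without ISG15 was -0.21. VWA1, a matrix protein, was at 1193, 1265, 1386 and 1357 against 607.4, 579.2, 595.5 and 326.3 (-1.34, adjusted p = 0.000164). KCNAB2, a potassium channel subunit, was at 237.6, 248.8, 245.9 and 247.6 against 149.7, 134.5, 155.1 and 110.0 (-0.84, adjusted p = 4.14e-07). The TNF receptor genes TNFRSF18 and TNFRSF9 changed by -1.34 and -1.01, SLC45A1, a sugar carrier, by -1.31 and ESPN, an actin bundler, by -0.95. The bin also holds ISG15 and the glycolytic ENO1 (-0.27), so that these genes enter both counts. This bin was singled out after its values were seen, and the part of GC content, of interferon and of copy number in its median was not tested.

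Among the 10 Mb bins, the lowest median belonged to that from 130 to 140 Mb of chromosome 10 (-0.28, 7 of 18 genes lower and 2 higher). ADAM8, a membrane protease, fell there from 803.2 ± 41.7 to 391.7 ± 65.1 (-1.05), beside the HIF target BNIP3 (-0.61). The bin from 50 Mb of chromosome 22 was next (-0.23, 11 of 25 lower, 0 higher), and there the TTP clones differed as well, with 8 genes lower in TTP_H3 and a median of -0.29. The highest median of the 10 Mb bins was in that from 60 to 70 Mb of chromosome 18 (0.18, 6 of 18 higher, 0 lower), with TNFRSF11A, the receptor RANK (66.4 ± 1.2 to 124.6 ± 17.9), RNF152, a ubiquitin ligase (0.75), and BCL2, the survival factor (230.9 ± 16.7 to 331.5 ± 15.6, 0.52). The bin from 130 to 140 Mb of chromosome 6 followed (0.17, 15 of 43 higher, 4 lower). The order changed with bins of 5 Mb, of which 362 held enough genes. There the lowest median was at 35 to 40 Mb of chromosome 5 (-0.29, 9 of 19 lower, 2 higher) and the highest at 135 to 140 Mb of chromosome 6 (0.18, 9 of 24 higher, 2 lower). The first 5 Mb of chromosome 1 had the third lowest (-0.25, 38 of 92 lower, 2 higher).

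**Figure D4:**
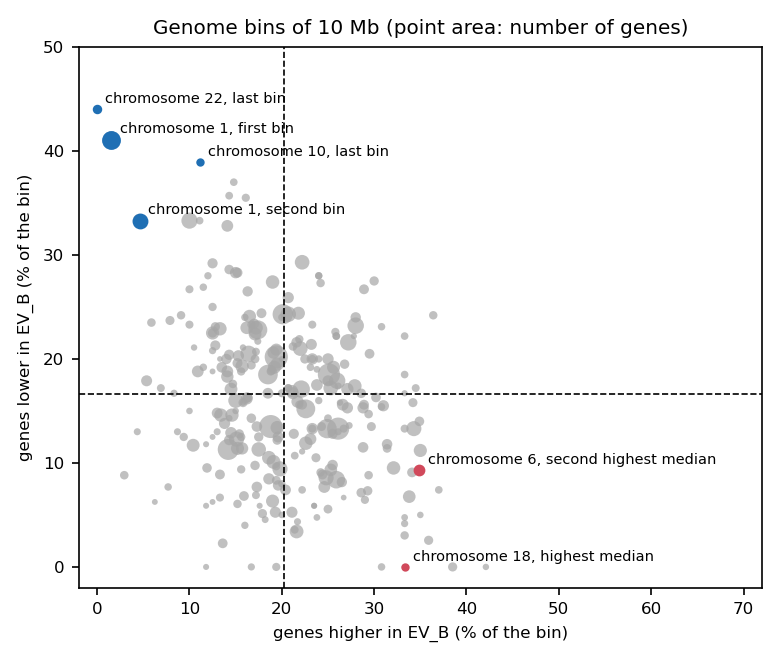
Percent of genes higher (x axis) and lower (y axis) in EV_B for each of 274 bins of 10 Mb, with point area in proportion to the number of genes and dashed lines at the values over all genes (20.2% and 16.6%). Bins described in the text are blue where their median is low and red where it is high. The first bin of chromosome 1 lies at 1.55% higher and 41.1% lower.

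The clones TTP_E11 and TTP_H3 offer a second pair that shares no library with the EV pair. The spread of each gene was estimated over both pairs together, however. Genes with a small spread or many reads are thus called more readily in both pairs, and the part of this in the overlap was not tested. They differed in 1735 genes (11.7%), and the comparison TTP_H3 versus TTP_E11 called 2851 without EV_B library 4 and TTP_H3 library 3, so the shares below rest on a count that moves with these libraries. Of the 5468 genes that differed between the EV clones, 892 also differed between the TTP clones (16.3% of the first set and 51.4% of the second), 610 in the same direction and 282 in the opposite one, where EV_B is paired with TTP_H3. Since the names of the clones carry no order, the direction has no meaning beyond the pairing chosen. Of the 296 genes with an EV difference of at least 1, 45 also differed between the TTP clones (15.2%), 28 in the same direction.

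IGHG2 and IGLC3 were high in 1 clone of each pair: IGHG2 was at 437.3 ± 42.3 in TTP_E11 and 6.38 ± 1.96 in TTP_H3 (log2 change -5.92), and IGLC3 at 79.5 ± 16.7 in TTP_E11 and listed at 0 in the 4 TTP_H3 libraries. Levels in the TTP clones are given for some lists and genes of the programmes above, as examples. The mean log2 level relative to EV_A in TTP_E11 and TTP_H3 was -0.37 and -0.31 for interferon-stimulated genes and -0.84 and -0.85 for HIF targets. It was -0.93 and -0.8 for S100 proteins and 0.35 and 0.32 for cytosolic ribosomal proteins. For these lists the TTP clones lay on the side of EV_B. For mitosis (-0.41 and -0.35) they lay on the other side, and for collagens (0.0 and 0.01) near EV_A. IFIT1 was at 1698 ± 68 and 1782 ± 38, CA9 at 24.1 ± 11.3 and 24.7 ± 9.1, S100A2 at 407.4 and 402.8, and CSF1 at 930.5 ± 32.6 and 949.6 ± 51.9 in TTP_E11 and TTP_H3, and none of these 4 passed the limma test between them. PSAT1, higher in EV_B, was at 1581 ± 87 and 1543 ± 21. EMB was at 929.0 ± 61.4 and 862.0 ± 26.6 and MMP1 at 5450 ± 202 and 7384 ± 2780, above both EV clones.

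**Figure D5:**
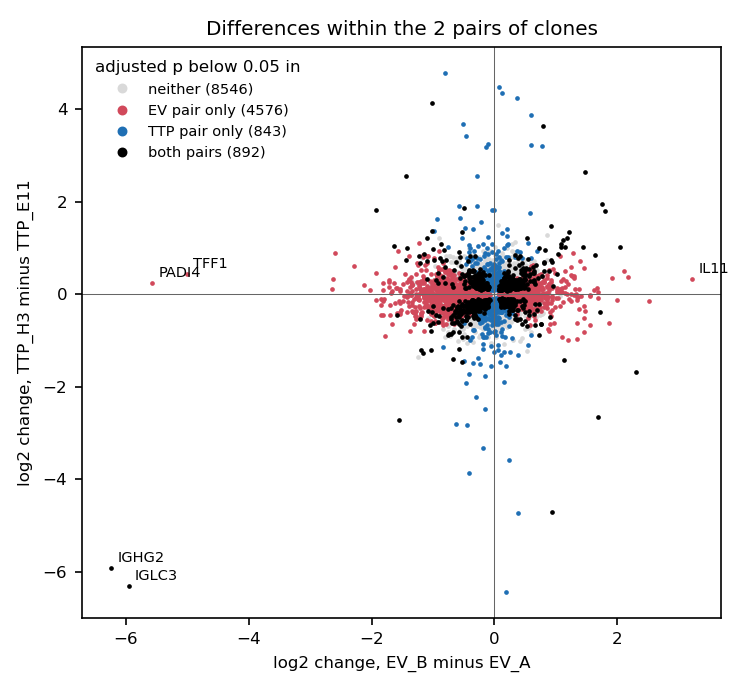
Log2 change between the EV clones (x axis) and between the TTP clones (y axis) for every listed gene, coloured by the pair in which it passed the test: 4576 genes in the EV pair, 843 in the TTP pair and 892 in both. IGHG2 and IGLC3 lie far from 0 on both axes, while PADI4, TFF1 and IL11 do so on the x axis alone.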

How the data were processed

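RNA from 4 biological replicates of each clone was sequenced. The authors deposited signal values, counts divided by a size factor per library, with no pseudocount. Per the submitters' processing notes, Trimmomatic 0.36, STAR 2.5.2b, Subread 1.5.2 with featureCounts, DESeq2 and GRCh38 were used, with no roles given. Clones were taken from the library names, because titles of most TTP libraries call them empty vector. The deposited values gave back whole reads within 0.001. No column belonged to another sample (0).

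Differences were tested with limma 3.58.1 (R 4.3.3, robust, with trend) on log2(value + 1) over all 16 libraries in 4 clone groups, with Benjamini-Hochberg adjustment over 14857 genes at 0.05. Alternatives were the 8 EV libraries alone, a replicate block, pseudocounts of 0.1 and 5, a filter at a mean of 50, 3 scalings, each EV library left out, and, on reads recovered for the EV libraries, DESeq2 1.42.0 and edgeR 4.0.16. On simulated data for this comparison (14857 genes), the test called 96% of simulated 1.5-fold differences and 100% of those of 2-fold. The 200 changed genes all had a mean of at least 50, so these shares do not cover weaker genes. No library was simulated to stand apart as EV_B library 4 does. Of the 208 genes called, 12 were unchanged.

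The members and the 45 gene lists were chosen with earlier results of these data known. Named genes were the 12 higher and 12 lower with the largest change among called genes whose libraries did not overlap and whose mean reached 50 in the higher clone; called genes with a mean of at most 5 in 1 clone and at least 25 in the other; up to 8 members of each list; the ZFP36 family; and genes of the 10 Mb bins with extreme medians. Genes of the start of chromosome 1 and the GAAANNGAA motif were chosen after values were seen. Gene positions are from GENCODE 29, which held 14820 of the genes, and 26 rows had no symbol. Results for a few genes are not reported here.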

Additional observations from a re-analysis of the deposited data

Results flagged for a closer look

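A library lay far from the other 3 of its clone, by Dixon's criterion (the gap to the next library as a share of the range), in 39 of 408 groups of 4 values (9.56%), where chance gives about 1 in 20. EV_B library 4 was the distant one in 22 of the 25 such groups of EV_B. It was the lowest for the interferon-stimulated genes as a list (-0.9504 on the log2 scale relative to EV_A), with ISG15 at 1281 and MX2 at 29.15. Glycolysis as a list was at -0.2974, ENO1 at 52220 and PGK1 at 11610. The cholesterol list was at -0.52. Library 4 was also lowest for KRT19 (3691), MUC1 (85.57), S100A4 (3998), S100A6 (19580), TIMP3 (2460), VWA1 (326.3) and BMP4 (3490).

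The same library was the highest for the amino acid genes ASNS (1298), SLC3A2 (13030) and SLC7A5 (34520). It was also the highest for EEF2 (38050), UHRF1 (4824), TAP2 (2438), IL24 (576.4) and CYP1A1 (291.5). EV_B library 2 alone held reads of IGLC3 (3.177) and TFF1 (1.059) in its clone, and EV_B library 3 was lowest for VHL (884.7).

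In EV_A the distant library varied. Library 4 was highest for GBP2 (737.6), IL11 (37.28), SPON2 (160.6) and TGFB2 (2137), and for the TGF-beta list (0.0237). It also stood apart for the contractile list (0.044) and the HIF target list (0.0149). Library 2 stood apart for NR1H3 (279.4) and the mitochondrially encoded genes (0.1017). Library 3 was highest for PHGDH (91.79) and lowest for STAT2 (1334) and TNFRSF9 (9.526). Library 1 was highest for POLE (2470) and lowest for S100A6 (27910).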

How the results depend on the processing

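Over 19 alternative fits, 143 of the 145 named called genes kept their call and direction in each fit that gave a value. The exceptions were CYP1A1 in edgeR and ZFP36 in DESeq2. The fit with a filter at a mean of 50 gave no value for weaker genes. Many of these genes were named for a large change in the same data, which favours such stability. The number of genes called was 5468, and between 4808 (without EV_B library 4) and 5170 (without EV_B library 1) when 1 EV library was left out. It was 5809 in edgeR and 5150 in DESeq2. Genes higher by at least 1 on the log2 scale numbered 81, but 32 with a pseudocount of 5 and 16 with a filter at a mean of 50, and those lower by at least 1 numbered 215, but 108 with that filter, which tests fewer genes. The comparison TTP_H3 versus TTP_E11 called 1735 genes, and 2851 without EV_B library 4 and TTP_H3 library 3, for which the cause was not tested. With a replicate block 5420 genes were called. Deviations of EV_A and EV_B libraries with the same number correlated between -0.046 and -0.004, so no pairing by number was seen over all genes. Whether libraries of the same number shared a batch was not tested. Depth limits the weakest genes, where 9.69% and 5.45% were called lower and higher among the 2972 genes of lowest expression.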

Other observations

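The 3 lists below were chosen after the values were seen, so their counts are a description. Genes of MHC class II presentation, which professional antigen-presenting cells use, were lower in 7 of 12 and higher in 1, with a median log2 change of -1.01. CD74, the invariant chain, was at 1256, 1295, 1277 and 1354 in EV_A and at 517.2, 526.3, 497.6 and 391.2 in EV_B (log2 change -1.43, limma adjusted p = 3.96e-15). HLA-DMB changed by -1.70, HLA-DPA1 by -1.55 and HLA-DRA by -1.22, all of weak expression. CIITA, the master regulator of the class, was at 50.9 ± 2.0 and 44.7 ± 9.5 (limma adjusted p = 0.484). CD74 was at 1156 in TTP_E11 and 1120 in TTP_H3. These genes are expressed by immune cells too, of whose 12 markers 4 were listed, and the part of such cells was not tested.

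BMP genes were lower in 8 of 19 and higher in 3. The inhibitors of differentiation, direct targets of BMP SMADs, fell together: ID1 was at 1271 ± 42 and 668.5 ± 107 (-0.94), ID3 at 638.2 ± 32.2 and 247.5 ± 79.1 (-1.41), and ID2 at 49.1 ± 6.2 and 12.5 ± 3.3 (-1.92). The ligand BMP4 fell from 6116 ± 51 to 4252 ± 511 (-0.53), whereas BMPER, a secreted modulator of BMP, rose from 27.7 ± 5.4 to 59.9 ± 12.1 (1.08). Targets of the oxysterol receptor LXR were lower in 8 of 14 and higher in 0, with a median of -0.52. ABCA1, the cholesterol exporter, was at 572.9, 555.1, 574.1 and 624.8 in EV_A and at 220.1, 216.0, 164.6 and 97.8 in EV_B (-1.80, limma adjusted p = 2.18e-05). ABCG1 changed by -2.59 and MYLIP, which degrades the LDL receptor, by -0.68. NR1H3, the receptor LXR alpha, was at 247.3 ± 21.5 and 227.4 ± 10.5 (limma adjusted p = 0.366).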
